A study of Mus musculus with 9 samples.

Results

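The clustered protocadherin genes lie in 3 adjoining families, Pcdha, Pcdhb and Pcdhg, on mouse chromosome 18. They were taken as the StyI fragments of that chromosome (mm9) whose midpoint falls in chr18:37080001-38010000, a window of 930 kb. This gave 1028 of the 3053721 fragments counted over the genome. The 300 kb on either side held 344 fragments before the clusters and 474 after them. The cells were E14Tg2a, embryonic stem cells of the 129P2 mouse strain kept on gelatin in medium with LIF and given no other treatment in the labels. Nuclei are extracted at high salt and cut with StyI, which leaves a fraction retained in the nuclear material (high-salt recovered sequences, HRS) and a released fraction (Loop). There were 3 HRS libraries, 3 Loop libraries and 3 libraries of input genomic DNA titled D0, D12 and D21, names that the labels do not explain. All 9 came from the same line with no genetic change in the labels, and the labels do not say whether replicates were grown apart. The p-values therefore reflect only how these libraries vary, which may be technical.

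Clustered protocadherins are cell-surface adhesion proteins best known from neurons, where each cell uses its own combination of them by choosing among many alternative promoters. Pcdha and Pcdhg transcripts join 1 of many variable exons to constant exons shared within the family, whereas each Pcdhb gene is a single coding exon. The choice of promoter is known to involve CTCF and cohesin, which bring distant enhancers to the promoters through loops of the chromatin fibre.

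In the RefSeq table of GRCm38.p6, used for names and neighbour order only, 14 Pcdha genes are followed by 22 Pcdhb genes, by Slc25a2 and Taf7, and by 22 entries named Pcdhg. Zmat2, Hars2 and Hars, the last being histidyl-tRNA synthetase, are the nearest named genes before Pcdha1. Diaph1, a formin that builds actin filaments, and Hdac3, a histone deacetylase, come next after Pcdhgc5. An mm9 annotation was not used, so no bin is assigned to a gene. The window was instead cut into equal stretches of 310 kb, in the order in which the 3 families run: stretch 1 at chr18:37080001-37390000, stretch 2 at chr18:37390001-37700000 and stretch 3 at chr18:37700001-38010000. The borders between stretches are not the borders between families.

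The libraries held between 39051731 counts (HRS replicate 3) and 62928317 (Loop replicate 2), of which 13942 to 17840 lay in the clusters. Of the 1028 fragments, 221 (21.5%, 95% Wilson interval 19.1 to 24.1) had no count in any library, against 16.4% in the genome, 19.8% in the flank before the clusters (interval 15.9 to 24.3) and 4.64% in the flank after them. The share was 23.8% in stretch 1, 25.5% in stretch 2 and 16.3% in stretch 3. A 10 kb bin of the clusters had a median input level of 2.25 CPM (counts scaled to a common library total), against 3.18 over the genome. By stretch it was 1.88, 1.96 and 3.34 CPM. Of the 93 bins, 91 passed the filter on low counts. The bins at chr18:37220001-37230000, with 4 counts in all libraries together, and chr18:37550001-37560000, with 75, did not. The intervals cover counting error only.

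Retention was not even along the clusters: stretch 3 was higher in HRS than in Loop, whereas stretches 1 and 2 were not called. In stretch 1 the 3 HRS libraries had 68.2, 66.7 and 61.6 CPM and the Loop libraries 75, 75.2 and 70.2, with 76.9, 79.6 and 79.6 in the D0, D12 and D21 inputs. HRS lay below Loop and input in every library. In stretch 2 the HRS libraries had 59.2, 56.5 and 59.8 CPM, the Loop libraries 60.8, 60.8 and 54.7, and the inputs 67.7, 64.2 and 69.4. Here HRS and Loop overlapped. In stretch 3 the HRS libraries had 199, 186 and 240 CPM, the Loop libraries 123, 119 and 113, and the inputs 142, 132 and 141. All HRS libraries lay above all others in stretch 3, and HRS replicate 3 was the highest.

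**Figure D1:**
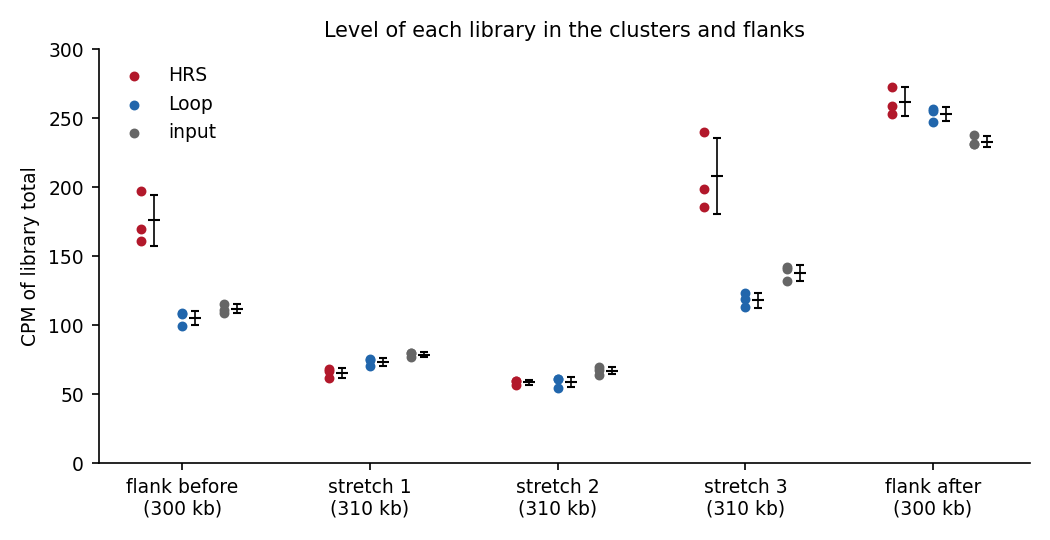
CPM of the library total (vertical axis) in the 3 stretches of the clusters and the 300 kb flanks (horizontal axis). Points are the 9 libraries, and bars beside them the mean ± SD of 3. In stretch 3 the HRS libraries sit at 186 to 240 CPM and the Loop libraries at 113 to 123, while in stretch 2 the 2 fractions overlap.

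The tests were run on all 310 kb tiles of the genome with edgeR's quasi-likelihood test and Benjamini-Hochberg adjustment. HRS exceeded Loop in stretch 3 by 0.88 ± 0.11 (log2, SE; 1.84-fold, adjusted p = 0.000199). Of 8255 tiles, 22.4% were called higher in HRS and 25.3% lower. Stretch 3 lay at percentile 98.7 of all tiles, and 2 of the 284 tiles of chromosome 18 were higher. Stretch 1 (−0.11 ± 0.05, adjusted p = 0.109) and stretch 2 (0.05 ± 0.07, adjusted p = 0.606) were not called. With the replicate number as a block in edgeR, stretch 3 stood at 0.86 (adjusted p = 5.1e-07). Stretch 1 (−0.11, adjusted p = 0.0933) and stretch 2 (0.05, adjusted p = 0.568) were again not called. Without HRS replicate 3, stretch 1 passed the threshold (−0.11, adjusted p = 0.0438) and stretch 3 kept its call at 0.71 (adjusted p = 3.4e-06). These are averages over many cells, so DNA retained in a part of the cells and DNA retained to a part in every cell cannot be told apart.

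Fragment length bears on these values, because the Loop libraries were richer in short fragments. Fragments of up to 200 bp made up 46.0% ± 5.49 of the cluster counts in Loop, 25% ± 1.2 in HRS and 21.6% ± 0.317 in input (SD, n = 3). Over the genome the means were 51.7%, 30.1% and 26.3%. Each comparison was therefore repeated with the count expected from fragment length as an offset, called length corrected here. Stretch 3 remained called (0.82 ± 0.13, adjusted p = 0.00173; 25.4% of tiles called higher and 23.2% lower), at percentile 97.6 of all tiles. Stretches 1 and 2 stood at −0.08 and 0.00 (adjusted p = 0.129 and 0.964). The expected count of a fragment was its total over the 9 libraries times the library's share of its length class. HRS counts thus enter the expected count of every library. As observed over expected count, before TMM scaling, HRS had 0.921, 0.896 and 0.842 in stretch 1 and 0.934, 0.885 and 0.966 in stretch 2, below every Loop and input library in both. The same order held for chromosome 18 as a whole. There HRS had 0.978, 0.979 and 0.931, Loop 0.991 to 1.02 and input 1.01 to 1.02. In the corrected fit of HRS to Loop, stretches 1 and 2 lay at percentiles 37.1 and 51.9 of all tiles.

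The contrast between stretch 3 and the others can be read inside each library, where no scaling enters, although fragment length still does. The count of stretch 3 was 1.56, 1.51 and 1.97 times that of stretches 1 and 2 together in HRS, 0.908, 0.878 and 0.901 times in Loop, and 0.985, 0.915 and 0.947 times in the D0, D12 and D21 inputs. The HRS ratios did not overlap with the others. HRS exceeded Loop by 0.90 and input by 0.82 on the log2 scale (exact two-sided permutation test, p = 0.1 for each, adjusted over 3 comparisons 0.1). With 3 libraries against 3 no smaller p than 0.1 is possible. With length correction and on fragments over 200 bp the HRS to Loop contrast lay between 0.69 and 0.85. The HRS to input contrast lay between 0.81 and 0.82. The ratio of stretch 3 to the others was chosen after the values along the clusters had been seen.

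At 10 kb, 28 of the 91 tested bins were called higher in HRS than in Loop and 11 lower (edgeR, adjusted p of 0.05), where 17.8% and 20.4% of 245823 bins of the genome were called. By stretch the bins called higher numbered 1, 4 and 23, and those called lower 6, 5 and 0. The 0 in stretch 3 was also 0 at an unadjusted p of 0.05 and with DESeq2. The median log2 ratio was 0.18 in stretch 1, 0.15 in stretch 2 and 0.84 in stretch 3, against 0.01 over the genome. After length correction 22 bins were higher and 1 lower, with 14.9% and 8.42% of the genome's bins called. All 22 were in stretch 3, and 19 of them had been called without the correction. With the replicate number as a block the corrected counts were 25 and 3, with 24 of the 25 in stretch 3 and 1 in stretch 2. The genome's shares given here belong to the fits without the block. In stretches 1 and 2 the corrected test called 0 bins higher, with 1 and 2 at an unadjusted p of 0.05, where DESeq2 without correction called 2 and 4.

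**Figure D2:**
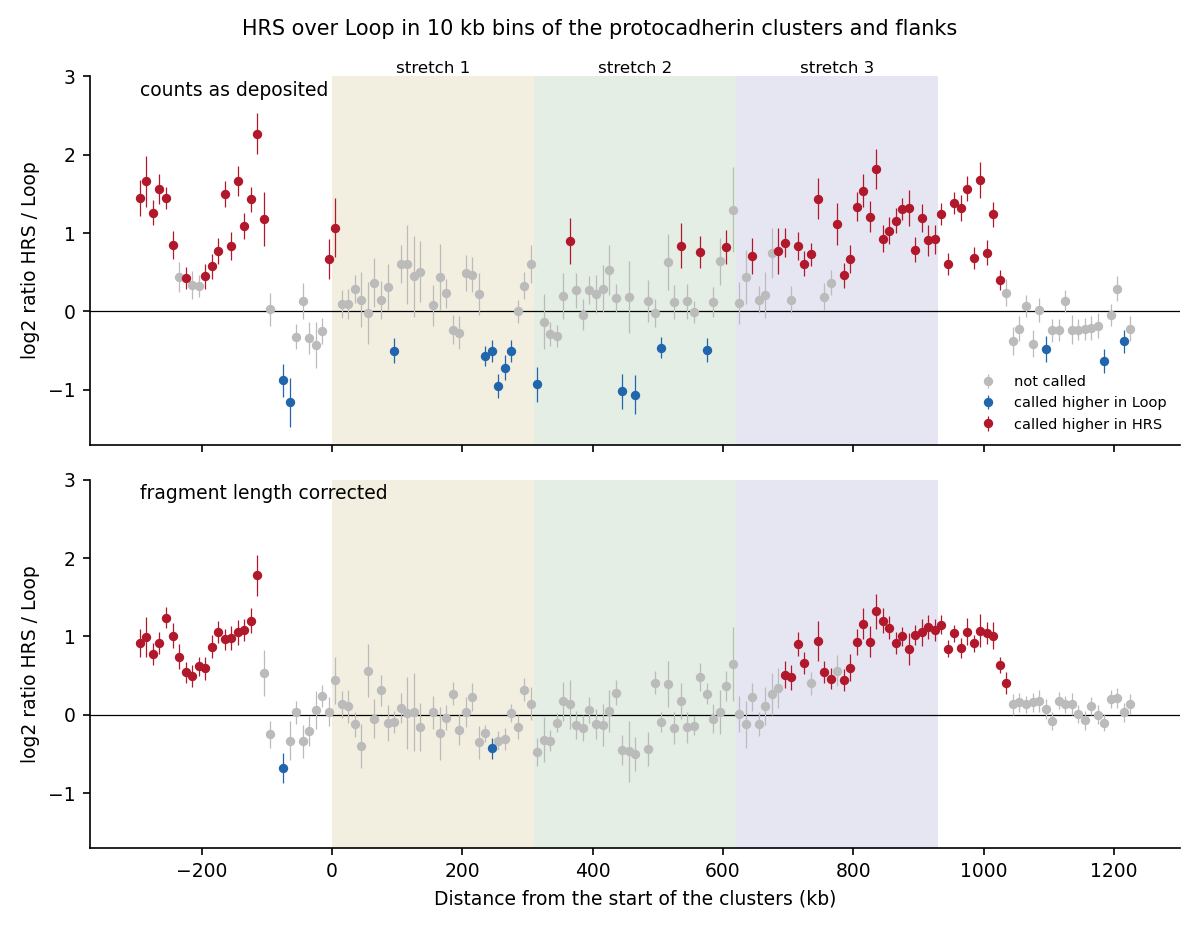
Log2 ratio of HRS to Loop (vertical axis, bars are SE) in each tested 10 kb bin against distance from the start of the clusters in kb, for counts as deposited (top) and length corrected (bottom). Red and blue points passed an adjusted p of 0.05. In stretch 3, 23 of 31 bins are red at the top and 22 at the bottom, and blue points in the clusters number 11 and 1.

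The bins called higher joined into a block that ran past the end of the clusters. Adjoining calls covered chr18:37850001-38110000, 260 kb of which 16 of 26 bins lay in the clusters, with a mean log2 ratio of 1.10. Over this block the HRS libraries had 209, 193 and 232 CPM, the Loop libraries 112, 105 and 100, and the inputs 128, 124 and 128. No HRS library overlapped with a Loop or input library. With length correction the block lay at chr18:37860001-38120000 (mean 0.95, 15 of 26 bins in the clusters). Without the replicate block, corrected calls higher in HRS inside the clusters began at chr18:37770001. With the block, the bin at chr18:37640001-37650000 in stretch 2 was also called higher (0.48, adjusted p = 0.0381, against 0.0639 without the block).

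The 5 strongest of the called bins with at least the median count all lay in stretch 3. The bin at chr18:37950001-37960000 had 6.81, 7.53 and 7.09 CPM in HRS, 3.39, 2.59 and 2.52 in Loop and 4.49, 4.33 and 4.26 in input. Its log2 ratio of HRS to Loop was 1.31 ± 0.14 (adjusted p = 1.09e-06) and 1.00 ± 0.12 length corrected (adjusted p = 5.45e-05). The bin at chr18:37880001-37890000, which holds no count on fragments up to 200 bp, had 5.01, 4.02 and 5.40 CPM in HRS and 2.50, 1.67 and 1.45 in Loop. Its ratio was 1.34 ± 0.19 (adjusted p = 1.95e-05) and 0.93 corrected. The groups did not overlap in either bin. The others were chr18:37820001-37830000 (1.44), chr18:37960001-37970000 (1.32) and chr18:37900001-37910000 (1.21). All 5 remained called under each of the 16 alternative settings run for them.

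One bin outside that rule, chosen after its values were seen, had the highest log2 ratio in the clusters. At chr18:37910001-37920000 the HRS libraries had 3.88, 3.05 and 3.56 CPM, the Loop libraries 0.906, 1.48 and 0.528, and the inputs 1.91, 1.98 and 1.87. HRS was above input and input above Loop in every library. The ratio of HRS to Loop was 1.82 ± 0.26 (3.53-fold, adjusted p = 1.81e-05) and 1.32 ± 0.22 corrected (adjusted p = 0.000616).

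Bins called lower in HRS than in Loop lay in stretches 1 and 2 and held many short fragments. They made up 20.0% of the tested bins in stretch 1 and 16.7% in stretch 2, not above the genome's share of 20.4%. A run of 5 covered chr18:37310001-37360000, where HRS had 25, 22.1 and 20.2 CPM, Loop 33.6, 35.9 and 36.4, and input 26.8, 27.9 and 28.3. Loop stood above both HRS and input. The lowest of the bins named by the rule, chr18:37330001-37340000, had 6.15, 6.18 and 4.87 CPM in HRS and 10.0, 12.3 and 10.3 in Loop, with 61.3% of its counts on fragments up to 200 bp. Its ratio was −0.95 ± 0.15 (adjusted p = 4.86e-05) and −0.33 ± 0.12 corrected (adjusted p = 0.0582). With the replicate block the corrected bin did pass (−0.32, adjusted p = 0.0456). The others named were chr18:37340001-37350000 (−0.72), chr18:37310001-37320000 (−0.57) and chr18:37170001-37180000 (−0.50), none of them called after correction. The lowest ratio in the clusters, −1.06 (adjusted p = 0.00232), was at chr18:37540001-37550000, a bin with too few counts for the rule. Corrected it stood at −0.50 (adjusted p = 0.124). The bin called lower after correction without the block was chr18:37320001-37330000, with 30.5% short counts, at −0.51 ± 0.14 (adjusted p = 0.00842) and −0.43 ± 0.13 corrected (adjusted p = 0.0238).

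Across the 60 tested bins of stretches 1 and 2 the HRS to Loop ratio correlated with the share of counts on short fragments at Pearson r = −0.80, and at −0.04 after correction. Bins of one region share libraries and are not independent, so these are descriptions. In the 31 bins of stretch 3 the corrected ratio ranked with position along the chromosome at Spearman rho = 0.85.

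In steps of 90 kb, observed counts were divided by the expected counts defined above. Those rest on counts pooled over all 9 libraries as well as on fragment length. A step high in HRS thus lowers Loop and input relative to the expected count, and the reverse. From chr18:37050001 to chr18:37770000 the log2 difference of HRS from Loop lay between −0.33 and 0.00. The largest deficit, −0.33, was at chr18:37320001-37410000, where HRS had 0.915, 0.861 and 0.778 and Loop 1.06, 1.08 and 1.07 times the expected count. The next steps rose to 0.42, then 0.80, and 0.91 at chr18:37950001-38040000, which spans the end of the clusters. There HRS had 1.46, 1.34 and 1.67 and Loop 0.820, 0.796 and 0.751 times the expected count. The D0, D12 and D21 inputs had 0.824, 0.805 and 0.844, close to Loop. Beyond it the difference was 0.48, then −0.01 and −0.07. In the steps from 0.42 to 0.91 every HRS library was above every Loop and input library, and replicate 3 was the highest.

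**Figure D3:**
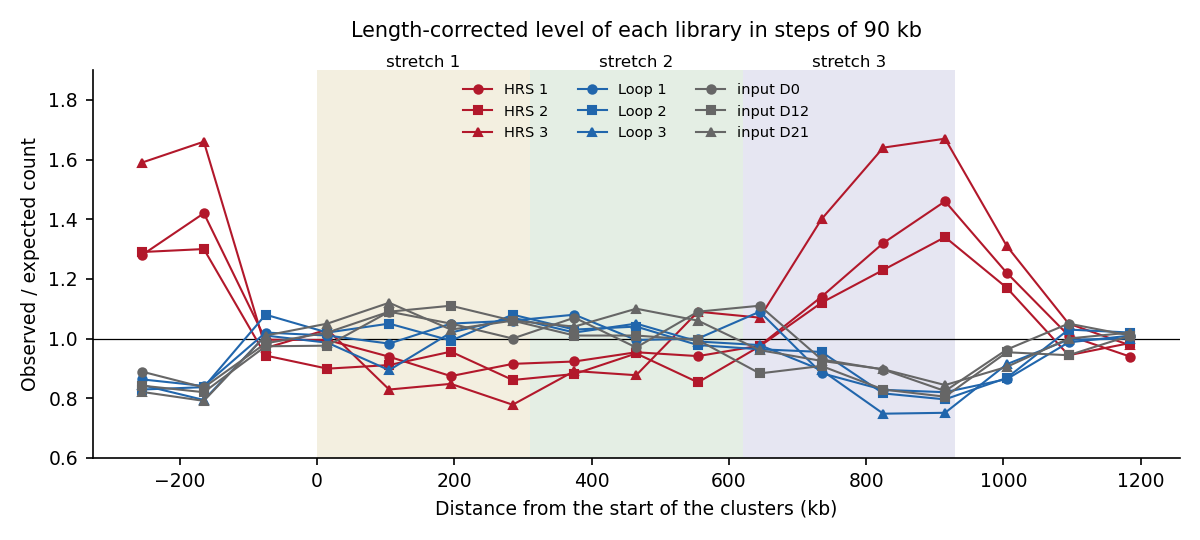
Observed over expected count (vertical axis) in 90 kb steps against distance from the start of the clusters in kb, a line for each of the 9 libraries. The expected count comes from fragment length and from the counts pooled over all 9 libraries. The HRS lines lie at 1.34 to 1.67 in the step that spans the end of the clusters. Loop lies there at 0.751 to 0.820 and input at 0.805 to 0.844. In 4 adjoining steps over stretches 1 and 2 the HRS lines lie at 0.778 to 0.956, below every Loop and input line. Over chromosome 18 as a whole (not drawn) HRS is also the lowest, at 0.931 to 0.979.

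Each flank held a block of bins higher in HRS. With length correction, the block before the clusters did not reach them. Before the clusters 18 of 29 tested bins (62.1%) were higher in HRS than in Loop and 2 (6.9%) lower, against 17.8% and 20.4% of the genome's bins. Length-corrected calls there ran over 19 adjoining bins at chr18:36780001-36970000, up to the edge of the window examined, with a mean log2 ratio of 0.94. Over the genome 14.9% of bins were called higher with the correction. In this run HRS had 152, 144 and 181 CPM, Loop 90.3, 87.6 and 81.5, and input 97.2, 93.7 and 90.8. The run ended at chr18:36970000, whereas the clusters began at chr18:37080001. The 90 kb step at chr18:36960001-37050000, which holds the last bin of the run, had a log2 difference of −0.10. In the next step, chr18:37050001-37140000, it was −0.04. Between the run and chr18:37770001 the corrected fit without the replicate block called no bin higher in HRS. The fit with it called the bin at chr18:37640001-37650000. The flank bin with the highest ratio, chr18:36960001-36970000, had 3.22, 2.29 and 4.20 CPM in HRS and 0.779, 0.588 and 0.613 in Loop (2.27 ± 0.26, adjusted p = 1.59e-06; 1.78 corrected). The lowest, chr18:37010001-37020000, held 93.7% of its counts on short fragments and stood at −1.16 ± 0.31 (adjusted p = 0.00628), but at −0.33 corrected (adjusted p = 0.38). After the clusters 10 of 30 bins (33.3%) were higher and 3 (10.0%) lower as deposited, the latter under the genome's share of 20.4%. Stretches 1 and 2 lay between these 2 blocks of higher HRS.

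Taken whole, the clusters held 327, 309 and 361 CPM in HRS, 259, 255 and 237 in Loop and 287, 275 and 290 in the D0, D12 and D21 inputs. The 3 groups did not overlap, and HRS exceeded Loop by 0.41 on the log2 scale (exact permutation test, p = 0.1, the smallest possible). Relative to both flanks the clusters stood at 0.762, 0.748 and 0.768 in HRS, 0.728, 0.703 and 0.665 in Loop and 0.812, 0.804 and 0.854 in input. HRS was thus 0.12 above Loop (exact p = 0.1), but the sign turned with length correction (−0.04, exact p = 0.2) and with flanks of 100 kb (−0.25, exact p = 0.1). The direction of that difference thus depended on the setting.

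Against input, retention in stretch 3 was again higher, with the same HRS libraries as above, so the 2 comparisons are not independent. HRS exceeded input in stretch 3 by 0.72 ± 0.11 (log2, SE; edgeR adjusted p = 0.000136; 24.2% of tiles called higher and 23.1% lower) and by 0.73 ± 0.11 corrected. Stretch 3 lay at percentile 96.1 of all tiles here, and at 96.5 corrected. Stretch 1 (−0.15, adjusted p = 0.0704) and stretch 2 (−0.08, adjusted p = 0.437) were not called, but without HRS replicate 3 stretch 1 was (−0.15, adjusted p = 0.0309). At 10 kb, 20 of 91 bins were higher and 2 lower, where 15.2% and 9.16% of the genome's bins were called. All 20 were in stretch 3. Length correction gave 21 and 2 (15.4% and 9.69% of the genome's bins). Both lower bins lay in stretch 1 and were called with and without the correction. The bin at chr18:37300001-37310000, with too few counts for the naming rule, had 0.321% short counts. HRS had 1.51, 1.64 and 0.922 CPM, Loop 1.3, 1.35 and 0.8, and input 3.04, 3.04 and 2.92. Length corrected, HRS to input was −0.91 (adjusted p = 0.000886) and HRS to Loop −0.35 (adjusted p = 0.252). The other, chr18:37320001-37330000 (−0.37, adjusted p = 0.0419), lost its call in 8 of 13 settings. Without HRS replicate 3 the bins called lower numbered 8.

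Among the called bins, those with the largest HRS to input ratios lay toward the end of the clusters. The bin at chr18:37990001-38000000, with 29 StyI fragments, had 27.5, 23.8 and 34.7 CPM in HRS, 16.0, 13.2 and 16.2 in Loop and 15.7, 14.3 and 16.5 in input. HRS was above the rest in every library, and Loop and input overlapped. HRS exceeded input by 1.03 ± 0.19 (adjusted p = 0.000786). The bin at chr18:37930001-37940000 had 3.69, 3.64 and 4.10 CPM in HRS and 1.8, 2.03 and 2.10 in input (1.08 ± 0.15, adjusted p = 4.25e-05). The bins at chr18:37920001-37930000, chr18:37980001-37990000 and chr18:38000001-38010000 stood at 1.00, 0.99 and 1.00, and each of the 5 kept its call in all 13 settings run.

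Loop against input gave bin calls that were all lost with length correction. As deposited, 12 of 91 bins were higher in Loop and 25 lower (21.5% and 18.0% of the genome's bins). With the correction edgeR called 0 in either direction, with 2 higher and 8 lower at an unadjusted p of 0.05, and 0.269% and 0.0786% of the genome's bins were called. DESeq2 without correction called 9 and 20. The bin with the highest ratio among those named, chr18:37330001-37340000, had 10.0, 12.3 and 10.3 CPM in Loop and 6.74, 6.75 and 8.06 in input, groups that did not overlap (0.73 ± 0.11, adjusted p = 3.25e-05; 0.07 corrected). The lowest, chr18:37880001-37890000, has no short counts and had 2.50, 1.67 and 1.45 CPM in Loop and 3.64, 3.32 and 3.06 in input (−0.71 ± 0.17, adjusted p = 0.00247; −0.17 corrected). The other bins named as higher began at 37650001 (0.68), 37350001 (0.63), 37340001 (0.59) and 37830001 (0.43), and those named as lower at 37820001 (−0.67), 37770001 (−0.58), 37640001 (−0.53) and 37950001 (−0.49). The named higher bins had 49.5% to 73.2% of their counts on short fragments and the lower ones at most 19.8%. Across the 91 bins the ratio correlated with the share of short counts at r = 0.83, and at −0.06 after correction, given as a description. Stretch 3 was lower in Loop by −0.19 ± 0.04 (adjusted p = 0.0294; 6.3% of tiles called higher and 7.39% lower) and by −0.06 corrected (adjusted p = 0.76).

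**Figure D4:**
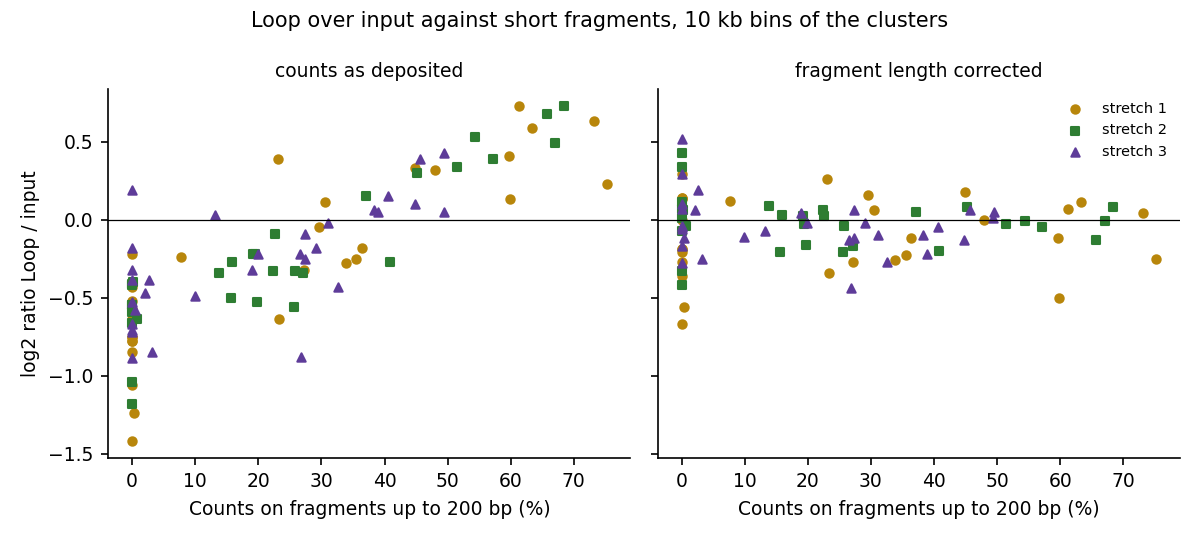
Log2 ratio of Loop to input (vertical axis) against the percentage of counts on fragments up to 200 bp (horizontal axis), a point for each of the 91 tested bins of the clusters. The points climb with short fragments in counts as deposited (r = 0.83, left) and are level after length correction (r = −0.06, right).

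Of the 1028 members, 542 had a mean of at least 10 counts. In 197 of them (36.3%, against 21.3% of such fragments in the genome) all HRS libraries were above all Loop libraries, and in 52 (9.59% against 15.3%) all were below. The higher ones numbered 21 of 151 in stretch 1, 25 of 138 in stretch 2 and 151 of 253 in stretch 3. Their median length was 1083, 850 and 677 bp by stretch, whereas that of the lower ones was 78.5, 91.0 and 67.0 bp. The share higher in HRS was 59.7% in stretch 3 and 57.9% (125 of 216) in the flank before the clusters. In the flank after them it was 31.4% (128 of 408). Against input, 103 fragments (19.0% against 11.4%) were higher in HRS, of which 98 lay in stretch 3, and 58 (10.7% against 15.9%) were lower. The share higher than input was 38.7% in stretch 3, 41.2% in the flank before the clusters and 17.6% in the flank after them. In Loop 63 fragments (11.6% against 16.3%) were above input and 216 (39.9% against 33.3%) below it.

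Among the named fragments, chr18:37902843-37903788 (945 bp) had 23, 24 and 39 counts in HRS, 11, 2 and 2 in Loop and 21, 8 and 25 in input. Its Loop replicates 2 and 3 lie under 3 counts, so no fold is given. A fragment of 1767 bp at chr18:37915595-37917362 had 57, 39 and 42 counts in HRS and 10, 12 and 4 in Loop (a ratio of 7). At the other end, a fragment of 48 bp at chr18:37414274-37414322 had 7, 7 and 5 counts in HRS, 65, 74 and 57 in Loop and 27, 23 and 20 in input. The 5 named fragments higher in HRS were 858 to 2013 bp long and all in stretch 3. The 5 lower ones were 48 to 104 bp long and lay in stretches 1 and 2.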

How the data were processed

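Per the labels' protocols, StyI ends were joined to an adaptor and cut with MmeI to short tags, so a fragment is counted by its ends and not by its length. The deposited values are whole-number counts per StyI fragment in 9 libraries. CASAVA 1.8.2 and mm9 come from the submitters' processing notes, and for the aligner, or how tags with several matches were treated, nothing was given in the sources used here. The 21 last intervals of chromosomes were left out. Repeat tables were not used.

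Counts were summed by fragment midpoint into 10 kb bins and 310 kb tiles of the whole genome. Each pair of groups was tested with edgeR 4.0.16 in R 4.3.3 (glmQLFit, glmQLFTest), with TMM, filterByExpr with a minimum count of 10, and Benjamini-Hochberg adjustment over all bins or tiles. SE is the log2 ratio over the square root of F. CPM uses library totals. The length correction gave each fragment an expected count in each library, used as an offset. It was the fragment's total over the 9 libraries times the library's share of the counts in its length class, of 20. Alternatives included DESeq2 1.42.0. The fits of HRS to Loop without the replicate block were also run on simulated counts without replicate pairing, with the outcome not reported here.

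HRS and Loop share replicate numbers, and within pairs of equal number the departures from the group mean had correlations of 0.154, 0.108 and 0.228, all over the limit of 0.1 for pairing. HRS replicate 2 correlated at 0.124 with Loop replicate 1. The main fits of HRS to Loop had no replicate term, and the permutation tests did not keep same-numbered libraries together. Only the fits with the replicate block took the pairing in. Same-group libraries differed beyond counting noise.

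Named bins were the 5 of largest log2 ratio in each direction among called bins with at least the median count, and named fragments the 5 of largest and smallest ratio of HRS to Loop among those whose groups did not overlap. The members and the stretches were chosen with earlier results of these data known. No sequence is printed.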

Additional observations from a re-analysis of the deposited data

How the results depend on the processing

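Log2 ratios of HRS to Loop in stretch 3 lay between 0.69 and 0.98 over all settings and kept their call, and bins called higher in HRS than in Loop numbered 19 to 36. With the replicate block, which pairs same-numbered libraries, 33 bins were higher and 11 lower, and with length correction too 25 and 3. The genome's shares given above are from fits without this block. Of the HRS to Loop calls named, it changed those of the bins at 37330001 and 37640001, both length corrected. Bins lower in HRS than in Loop numbered 1 length corrected, 1 on fragments over 200 bp and 7 on bins shifted by 5 kb. In stretch 1, HRS to Loop without both replicate 3 libraries was −0.13 (adjusted p = 0.011), a setting chosen after seeing the data, and leaving out each library gave −0.13 to −0.10. In stretch 2 the sign turned with library totals (−0.01), without both replicate 3 libraries (−0.05) and without HRS replicate 3 (−0.01; range over left-out libraries −0.01 to 0.10). HRS to input in stretch 1 passed the threshold with library totals (−0.26), fragments over 200 bp (−0.17), all 9 libraries in 1 fit (−0.15) and DESeq2 (−0.13); leaving out a library gave −0.16 to −0.12. Bins lower in HRS than in input numbered 1 at an adjusted p of 0.01, with median-of-ratios factors, with all 9 libraries and with DESeq2, 7 with library totals, 4 on shifted bins, and 1 to 8 with a library left out. Loop to input gave 6 higher and 10 lower bins at an adjusted p of 0.01, 6 and 40 with library totals, 0 and 1 on fragments over 200 bp, 0 and 0 length corrected, and 7 higher with all 9 libraries; leaving out a library gave 6 to 11 higher and 13 to 27 lower (6 higher without D12, 7 without D0, 14 lower without D0, 13 without D21). In stretch 3, Loop to input lost its call length corrected (−0.06), on fragments over 200 bp (−0.04), with all 9 libraries (−0.16), and without Loop replicate 2 or 3, D12 or D21 (range over left-out libraries −0.22 to −0.16). The clusters over flanks, HRS to Loop, turned to −0.04 length corrected, −0.02 on fragments over 200 bp and −0.25 with 100 kb flanks, and stretch 3 over the others, Loop to input, turned from −0.08 to 0.11 on fragments over 200 bp. Fragments apart at a mean of 30 counts numbered 59 (HRS over Loop), 57 and 8 (HRS over and under input) and 39 (Loop under input); with TMM 38 were under input in HRS, and 78 to 94 with a library left out. On fragments over 200 bp the bin at 37170001 turned to 0.23 for HRS to Loop, and for Loop to input those at 37330001, 37650001, 37350001 and 37950001 to −0.24, −0.37, −0.53 and 0.01, 37650001 also to −0.13 length corrected. The fits were only rerun under these settings, and the cause of the changes was not tested. Bins of few counts limit what can be seen in stretches 1 and 2, whose bins had medians of 900 and 787 counts over 9 libraries against 1610 in stretch 3.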
